A study of Mus musculus with 10 samples.

Results

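The comparison of Atf3-/- with wild type bone marrow-derived macrophages after LPS rested on 4 of the 10 arrays of the series, chosen by their titles: 2 arrays of Atf3-/- cells with LPS and 2 of wild type cells with LPS. Another 3 arrays of Atf3-/- cells and 3 of wild type cells without LPS served to estimate the spread and to show each gene's level before stimulation. All cells came from mice labelled as female, of the C57BL/6J strain and 8 to 12 weeks old. Marrow cells of both genotypes were grown with recombinant human M-CSF at 50 ng/mL, and LPS was added at 10 ng/mL for 4 h. Different animals or cultures are not stated for the arrays of a group. The p-values below therefore describe the spread among these arrays, and that spread may be technical only. Of the 16860 rows of the deposited table, each standing for 1 Ensembl gene, 4 were left out and 16856 were described. Values were log2 expression, so that a difference of 1 is a 2-fold change.

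ATF3 belongs to the ATF/CREB family of basic leucine zipper proteins, which bind DNA as dimers and regulate transcription. Toll-like receptor signals induce it in macrophages, and it is known there as a brake on inflammatory genes. LPS, from the outer membrane of Gram-negative bacteria, activates macrophages through Toll-like receptor 4, and the response includes induced genes such as cytokines and chemokines as well as many genes that are turned down. The comparison asks how macrophages lacking Atf3 differ from wild type cells once that response is under way. Genes are given by their Ensembl IDs, because neither the table nor the reference used here pairs these IDs with symbols: 0 of the 16856 could be matched. The level of Atf3 in each array, macrophage markers, markers of other cell types and promoter sequences were therefore not analysed here, and the genotype and cell type labels were taken as given.

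The 10 arrays had medians between 5.45 and 5.56 and values between 2.26 and 14.2 on the log2 scale. Across genes, the pair of Atf3-/- arrays with LPS correlated at r = 0.992 and the wild type pair with LPS at r = 0.994. The median SD within a pair was 0.108 for Atf3-/- and 0.107 for wild type. A state was given to each array by whether 1 of the 4 omitted rows was above 6 on the log2 scale, which divided the 10 arrays into 2 states of 5 arrays. Atf3-/- LPS replicate 2 was in the other state from Atf3-/- LPS replicate 1 and both wild type LPS arrays, which shared a state. Replicate 1 against wild type is therefore the comparison within a state. The 3 wild type arrays without LPS were in the state of replicate 2, as was 1 of the 3 Atf3-/- arrays without LPS. Within wild type, the response to LPS therefore cannot be told apart from the change of state. A term for the state, used below, is estimated from the Atf3-/- arrays only.

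After LPS, 662 genes (3.93% of those measured) differed between the genotypes in limma's test at an adjusted p under 0.05. The division was even, with 331 genes higher in Atf3-/- macrophages (1.96%) and 331 lower (1.96%). The differences were mostly modest: the median was 0.81 among the higher genes and -0.80 among the lower ones, and 0.01 over all genes. At least 2-fold differences were found for 111 of the higher and 90 of the lower genes. At least 4-fold differences were found for 10 higher and 12 lower genes. In all 662 genes both Atf3-/- arrays lay on the same side of both wild type arrays. That alone is a weak criterion with 2 arrays against 2, since both Atf3-/- arrays lay above both wild type arrays in 21.0% of all genes and below both in 20.0%.

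**Figure D1:**
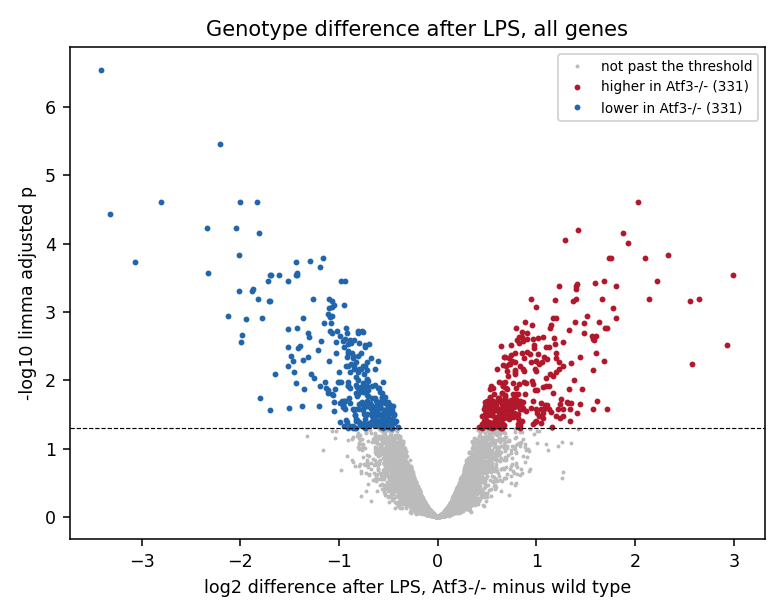
Log2 difference after LPS (Atf3-/- minus wild type, horizontal) against -log10 of the limma adjusted p (vertical) for 16856 genes, 1 point each, with the threshold of 0.05 as a dashed line. Genes past it numbered 331 higher and 331 lower in Atf3-/-, with the lowest adjusted p on the lower side.

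The number of calls depended on single arrays. It was 319 without Atf3-/- LPS replicate 2 and 231 without wild type LPS replicate 1. With the state as a covariate it was 419, and with the 4 LPS arrays fitted alone it was 63.

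ENSMUSG00000056071 had the largest difference in the direction of lower expression in Atf3-/- macrophages. Its expression was 4.57 and 4.62 in the Atf3-/- arrays with LPS, against 7.91 and 8.10 in the wild type arrays with LPS. The groups lay far apart and each was tight. The difference was -3.41 (SE 0.13, limma adjusted p = 2.83e-07), a 10.6-fold lower level. Without LPS it was at 4.42 ± 0.14 in Atf3-/- and 8.45 ± 0.14 in wild type (SD, n = 3 each), so the gene differed by genotype with and without LPS. Its response to LPS was 0.18 in Atf3-/- (limma adjusted p = 0.262) and -0.44 in wild type (limma adjusted p = 0.0111). The response difference of 0.62 (SE 0.17, limma adjusted p = 0.0561) missed the threshold.

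ENSMUSG00000072844 also differed with and without LPS, and it was induced by LPS in both genotypes. It reached 7.01 and 6.38 in the Atf3-/- arrays with LPS, against 10.06 and 9.98 in the wild type arrays with LPS. Both Atf3-/- arrays were below the 3 wild type arrays without LPS, which lay between 7.04 and 7.64. The difference after LPS was -3.32 (SE 0.24, limma adjusted p = 3.61e-05). The gene rose with LPS by 2.26 in Atf3-/- and by 2.59 in wild type, and these responses did not differ by the test of the difference (response difference -0.33, SE 0.31, limma adjusted p = 0.604).

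ENSMUSG00000038508 had the largest difference in the direction of higher expression in Atf3-/- macrophages. Its expression was 8.87 and 10.15 in the Atf3-/- arrays with LPS, against 6.65 and 6.37 in the wild type arrays with LPS. Replicate 2 was the higher Atf3-/- array, and both were above wild type. The difference was 3.00 (SE 0.30, limma adjusted p = 2.88e-04), or 8.0-fold. Before LPS the genotypes lay closer together, at 10.24 ± 0.19 in Atf3-/- and 9.73 ± 0.02 in wild type (SD, n = 3 each), and this difference was not called (limma adjusted p = 0.210). The response to LPS was -0.73 in Atf3-/- (limma adjusted p = 0.0505) and -3.22 in wild type (limma adjusted p = 1.59e-06).

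ENSMUSG00000040950 had 6.78 and 7.67 in the Atf3-/- arrays with LPS, against 4.27 and 4.31 in the wild type arrays with LPS. Both Atf3-/- arrays were within the range of the 3 Atf3-/- arrays without LPS, from 6.55 to 8.22. The difference after LPS was 2.93 (SE 0.43, limma adjusted p = 0.00299). The wild type level fell by 2.04 with LPS (limma adjusted p = 0.00121), whereas the change in Atf3-/- was -0.28 (limma adjusted p = 0.589). The test of the response difference itself gave 1.76 (SE 0.56, limma adjusted p = 0.0890), which missed the threshold.

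**Figure D2:**
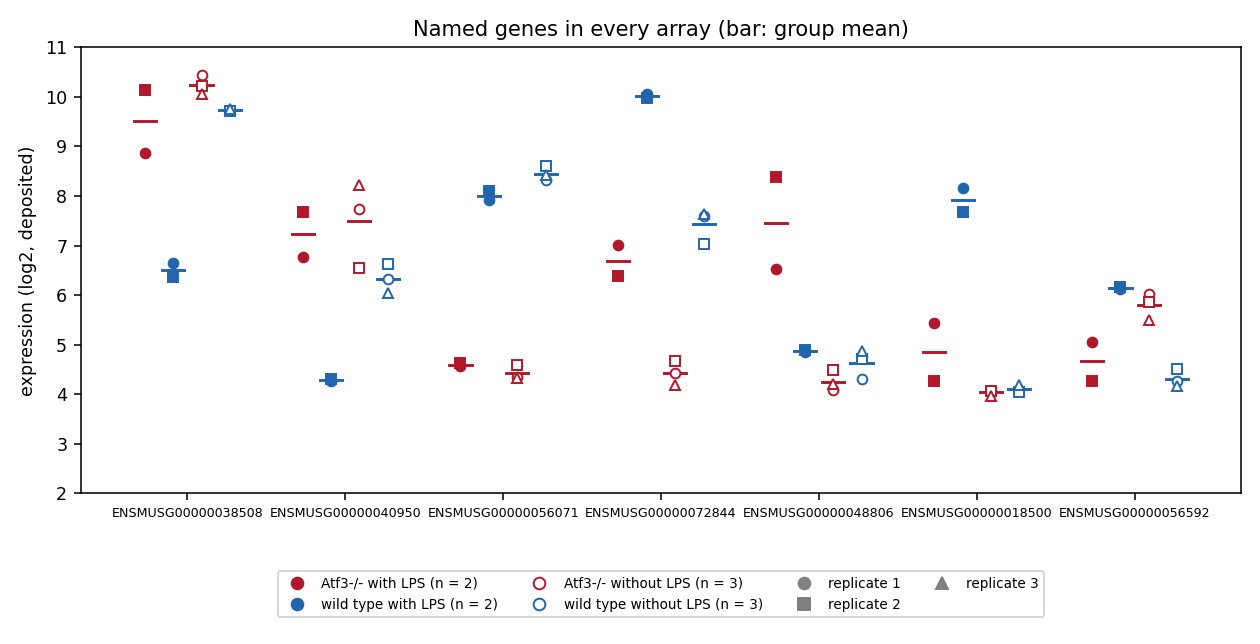
Deposited log2 expression (vertical) of 7 genes in all 10 arrays, with Atf3-/- in red and wild type in blue, filled with LPS and hollow without, a marker shape per replicate and bars at group means. In each gene both filled red points lie on 1 side of both filled blue points. Among the 7 genes, the gap between the 2 Atf3-/- arrays with LPS was widest in ENSMUSG00000048806 (1.85). ENSMUSG00000038508 (1.28) and ENSMUSG00000018500 (1.19) followed, and the gap was narrowest in ENSMUSG00000056071 (0.05).

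The strength of the LPS response differed between the 2 Atf3-/- arrays. Each array was placed along the mean LPS response of both genotypes, where 0 is the mean without LPS and 1 the mean with LPS. Atf3-/- LPS replicate 1 lay at 1.02 and replicate 2 at 0.911, against 1.05 and 1.02 for wild type LPS replicates 1 and 2. Replicate 1 was thus between the wild type arrays, and replicate 2 below both. The genotype difference of -0.0652 had a two-sided exact permutation p of 0.667, where 2 against 2 arrays can give no less than 0.333. Without replicate 2 the difference was -0.00301, and without replicate 1 it was -0.103.

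**Figure D3:**
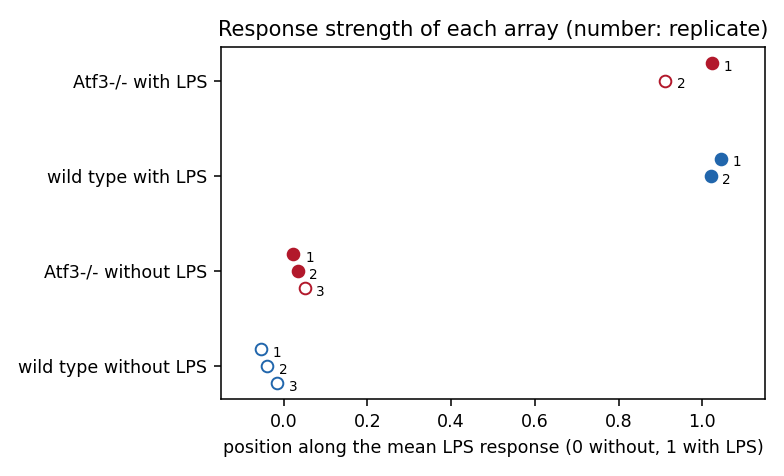
Position of each of the 10 arrays along the mean LPS response (horizontal, 0 without and 1 with LPS), by group, with the replicate number beside each point and filled and hollow points for the 2 states of the arrays. Atf3-/- LPS replicate 2, at 0.911, is the array with LPS farthest to the left and the only hollow one among the 4 arrays with LPS.

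The 2 Atf3-/- arrays also differed in how many genes lay far from wild type, in either direction. Set against the mean of the wild type LPS arrays, Atf3-/- LPS replicate 1 was at least 2-fold higher in 78 genes (0.463%) and at least 2-fold lower in 106 (0.629%). Replicate 2 was at least 2-fold higher in 212 genes (1.26%) and at least 2-fold lower in 150 (0.890%). Among the 331 genes called higher, the median difference was 0.71 in replicate 1 and 0.91 in replicate 2, and replicate 2 was the farther from wild type in 259 of them. Among the 331 called lower, the medians were -0.72 in replicate 1 and -0.85 in replicate 2, with replicate 2 the farther in 218. None of the 662 had its 2 Atf3-/- arrays on opposite sides of the wild type mean. This follows from both arrays lying on the same side of both wild type arrays, as given above. Replicate 2 also differed from the other arrays with LPS in its state, and the part of the state in its weaker response was not tested.

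In the full fit, genes that LPS induces were more often called lower than higher in Atf3-/- macrophages after LPS. LPS sets were formed from the mean response of both genotypes, at a limma adjusted p under 0.05: 940 genes rose at least 2-fold and 1081 fell at least 2-fold. With equal array numbers per genotype, the sampling errors of the mean response and of the genotype difference are uncorrelated. Both calls, however, use the same estimate of spread for each gene. The states are also not balanced over the groups, so a gene that follows the state is shifted in both measures, in opposite directions. Of the 940 induced genes, 118 were called lower in Atf3-/- (12.6%) and 56 higher (5.96%), where over all genes 1.96% were called in each direction. The all-gene share is not matched for level: the induced genes had a median of 9.15 in wild type with LPS, against 5.49 over all genes. Among the 4214 genes with the highest mean expression, 3.23% were called lower and 3.94% higher. The median difference of the 940 was -0.15. Set singly against the wild type mean, that median was -0.04 in Atf3-/- LPS replicate 1 and -0.27 in replicate 2. The shift of the median thus lay mainly in replicate 2. At least 2-fold below wild type were 41 induced genes in replicate 1 and 84 in replicate 2. At least 2-fold above were 28 in replicate 1 and 36 in replicate 2. Without wild type LPS replicate 1 the median difference was -0.09, and without wild type LPS replicate 2 it was -0.21. With the state as a covariate, 79 induced genes were called lower and 42 higher. Over all genes, that fit called 229 lower and 190 higher.

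Genes that LPS represses were, in the full fit, more often called higher than lower in Atf3-/- macrophages. Of the 1081 repressed genes, 106 were called higher (9.81%) and 22 lower (2.04%), with a median difference of 0.14. That median was 0.02 in replicate 1, which shared its state with the wild type LPS arrays, and 0.29 in replicate 2. Here too the shift of the median lay mainly in replicate 2. The repressed genes separated the 2 Atf3-/- arrays most plainly. At least 2-fold above wild type were 18 of them in replicate 1 and 100 in replicate 2. At least 2-fold below wild type were 10 in replicate 1 and 7 in replicate 2. Without wild type LPS replicate 1 the median difference was 0.12, and without wild type LPS replicate 2 it was 0.16. In the fit that took the state as a covariate, 47 repressed genes were called higher and 20 lower. Over all genes, that fit called 190 higher and 229 lower.

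The counts varied with the size of the response. Among 323 genes induced 4- to 16-fold, 46 were called lower in Atf3-/- (14.2%) and 12 higher (3.72%), and the medians were -0.08 in replicate 1 and -0.36 in replicate 2. Of the 90 genes induced at least 16-fold, 7 were called lower (7.78%) and 9 higher (10%), which are few genes in each direction. Over all genes 1.96% were called in each direction. The median of the 90 was -0.03 (0.07 in replicate 1, -0.12 in replicate 2). The quartiles of the mean difference in that class were -0.35 and 0.31. Among 185 genes repressed at least 4-fold, 28 were called higher (15.1%) and 4 lower (2.16%). Their median was 0.05 in replicate 1 and 0.48 in replicate 2. In the 7999 genes with no call for LPS the medians were 0.01 in both arrays, with 40 called higher (0.500%) and 62 lower (0.775%).

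**Figure D4:**
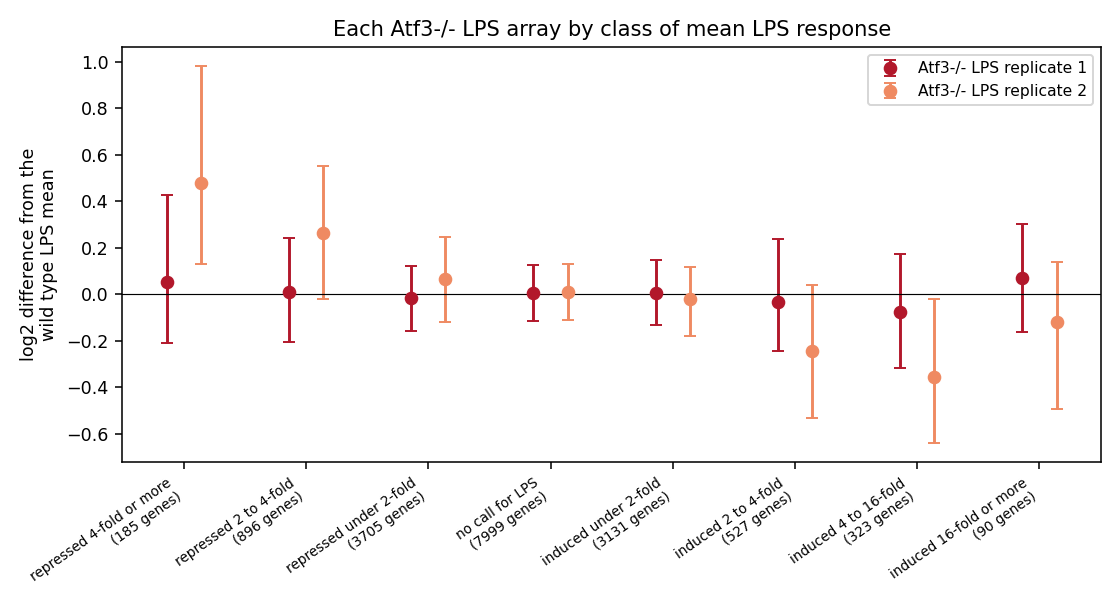
Log2 difference of each Atf3-/- LPS array from the wild type LPS mean (vertical), as the median with quartiles over the genes of 8 classes of mean LPS response (horizontal, repressed at left, induced at right). Replicate 1 stays near 0 in all classes, with medians from -0.08 to 0.07, while replicate 2 runs from 0.48 in the most repressed class to -0.36 in genes induced 4- to 16-fold.

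For each direction, the responses of the called genes to LPS are given by genotype. In the 118 induced genes called lower, the median response was 1.35 in Atf3-/- against 2.31 in wild type, and the median difference without LPS was -0.03. In the 56 induced genes called higher, the median response was 2.21 in Atf3-/- against 1.55 in wild type, and the median difference without LPS was 0.19, where over all 940 induced genes it was 0.18. For these 56 genes the 2 Atf3-/- arrays were alike, with medians of 0.88 in replicate 1 and 0.96 in replicate 2, and replicate 1 was the farther from wild type in 26. In the 106 repressed genes called higher, the median response was -1.15 in Atf3-/- against -1.87 in wild type. Their median difference without LPS was 0.19, where over all 1081 repressed genes it was -0.04. Replicate 2 was the farther from wild type in 103 of the 106. The 22 repressed genes called lower had median responses of -1.85 in Atf3-/- and -1.23 in wild type, and a median difference without LPS of -0.07. The remaining 169 higher genes (51.1%) and 191 lower genes (57.7%) were outside both sets. These responses share their LPS arrays with the genotype difference, so which genotype had the larger response follows largely from the choice of genes. The responses are given as levels, with no test.

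Some of the genes called after LPS already differed between the genotypes without it. In the arrays without LPS, which enter the comparison after LPS through the estimate of the spread but not through its difference, 7.17% of genes were called higher and 5.63% lower in Atf3-/-. These arrays are unevenly divided between the states, since all 3 of wild type but 1 of 3 of Atf3-/- are in the state of Atf3-/- LPS replicate 2. With a term for the state, the calls without LPS numbered 1052 in place of 2157. Leaving out single arrays without LPS gave 1193 for Atf3-/- replicate 2, 1333 for Atf3-/- replicate 3, 1382 for wild type replicate 1 and 1321 for wild type replicate 3. Called in the same direction with and without LPS were 114 higher and 58 lower genes, which are 26.0% of the 662 called after LPS and 7.97% of the 2157 called without. These 172 genes became 108 with a term for the state, 75 without wild type LPS replicate 1 and 114 without Atf3-/- LPS replicate 2. Opposite directions were found in 14 genes higher after LPS and lower without, and in 28 genes lower after LPS and higher without. Genes at least 2-fold apart without LPS were also followed. The 133 that were higher in Atf3-/- had a median difference of 1.37 without LPS and 0.40 after LPS (0.31 in replicate 1 and 0.49 in replicate 2), and 35 of them were called higher after LPS. The 73 that were lower had medians of -1.32 without LPS and -0.36 after LPS (-0.45 in replicate 1 and -0.28 in replicate 2), and 20 were called lower after LPS. Because these genes were picked by their difference without LPS, a smaller difference in other arrays follows in part from the choice, and the medians are descriptive.

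The other 448 genes were called after LPS and not without, which by itself does not show that the genotype difference depended on LPS. The test of the response difference (the genotype difference after LPS minus that without) called 5.96% of all genes and 294 of the 662. With a term for the state the 294 became 61. They became 131 without wild type LPS replicate 1 and 178 without Atf3-/- LPS replicate 2. Among the 448, it called 237, with 93 of 203 higher and 144 of 245 lower genes. These shares are not to be read against the 5.96%, because the genes were chosen for a call after LPS and the lack of one without, and the response difference uses the same arrays. For the remaining 110 higher and 101 lower genes this test did not separate the genotype difference after LPS from that without.

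**Figure D5:**
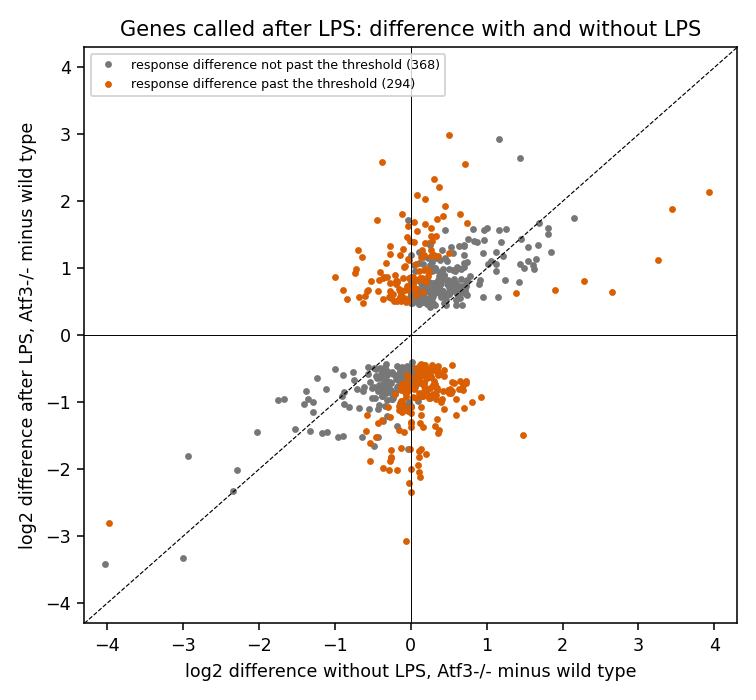
Log2 difference between Atf3-/- and wild type after LPS (vertical) against that without LPS (horizontal) for the 662 genes called after LPS, with the line of equal differences dashed. The 294 genes with a called response difference, are in orange and the other 368 in grey; 237 of the orange genes were not called without LPS.

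Among the 294, ENSMUSG00000018500 had the most negative response difference. Its expression was 5.44 and 4.26 in the Atf3-/- arrays with LPS, against 8.15 and 7.68 in the wild type arrays with LPS. Without LPS all 6 arrays lay between 3.97 and 4.18. The genotypes were thus level before LPS and apart after it, with replicate 2 of Atf3-/- near the level without LPS. The gene rose by 0.81 in Atf3-/- and by 3.81 in wild type (response difference -3.00, SE 0.37, limma adjusted p = 0.00230).

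In ENSMUSG00000056592 the genotype difference changed direction. It had 5.05 and 4.26 in the Atf3-/- arrays with LPS, against 6.13 and 6.16 in the wild type arrays with LPS. Without LPS the order was the opposite, at 5.79 ± 0.26 in Atf3-/- and 4.31 ± 0.18 in wild type (SD, n = 3 each). The genotype difference was -1.48 after LPS (SE 0.23, limma adjusted p = 0.00437) and 1.48 without LPS (SE 0.19, limma adjusted p = 7.16e-04). The response difference was -2.96 (SE 0.30, limma adjusted p = 8.16e-04). The response to LPS was -1.13 in Atf3-/- (limma adjusted p = 0.00114) and 1.83 in wild type (limma adjusted p = 2.15e-05). With the 4 LPS arrays fitted alone, the difference after LPS missed the threshold (limma adjusted p = 0.0739).

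ENSMUSG00000048806 rose in Atf3-/- cells and showed no called response in wild type cells. Its expression was 6.53 and 8.38 in the Atf3-/- arrays with LPS, against 4.85 and 4.90 in the wild type arrays with LPS. Both Atf3-/- arrays were above all other arrays, but they differed from each other by 1.85. The difference after LPS was 2.58 (SE 0.42, limma adjusted p = 0.00574), or 1.66 for replicate 1 and 3.51 for replicate 2 set singly against the wild type mean. The response difference was 2.96 (SE 0.55, limma adjusted p = 0.0121). The difference after LPS missed the threshold without wild type LPS replicate 1 (2.56, limma adjusted p = 0.0538) and with the 4 LPS arrays alone (limma adjusted p = 0.115). The response difference missed it without wild type LPS replicate 1 (2.93, limma adjusted p = 0.0546) and in the fit that took the state as a covariate (2.08, limma adjusted p = 0.150).

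ENSMUSG00000038508, described above, had a response difference of 2.49 (SE 0.39, limma adjusted p = 0.00584). In the fit that took the state as a covariate it was 2.03 and no longer called (limma adjusted p = 0.0799).

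The 2 Atf3-/- arrays with LPS were at least 2-fold apart in 107 genes, with 41 higher in replicate 1 and 66 higher in replicate 2, while the wild type pair was at least 2-fold apart in 42. Of the 662 genes called between the genotypes, 21 were among the 107. ENSMUSG00000048806 had the largest gap in favour of replicate 2. ENSMUSG00000032578 followed, at 6.92 and 8.53 in the Atf3-/- arrays with LPS, against 6.85 and 7.01 in the wild type arrays with LPS. Replicate 1 was within the wild type range and replicate 2 above it, and the genotype difference of 0.80 (SE 0.37, limma adjusted p = 0.320) was not called. ENSMUSG00000039209 had the largest gap the other way, at 6.61 in replicate 1 and 4.71 in replicate 2, against 4.07 and 4.72 in the wild type arrays with LPS. ENSMUSG00000023845 had 7.15 in replicate 1 and 5.34 in replicate 2, against 6.82 and 5.63 in the wild type arrays with LPS. In this gene the wild type pair was itself 2-fold apart. These genes were chosen by the gap between the 2 arrays, and the values are descriptive.

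The share of genes called depended on the expression level. Genes were divided by their mean over all arrays into 4 classes of 4214. In the lowest class, at 4.09 or less, 7 were called higher and 14 lower. In the highest class, at 7.42 or more, 166 were called higher (3.94%) and 136 lower (3.23%). The median absolute difference was 0.0909 in the lowest class and 0.173 in the highest.

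A core of 177 genes was called in the same direction in the full fit and in 10 alternatives: the replicate block, 2 other scalings, another prior, array weights, a term for the state, and the omission of each of the 4 arrays with LPS. Of these 86 were higher and 91 lower in Atf3-/-, with a median absolute difference of 1.20. The 177 came from 16856 genes, and the alternatives refit the same arrays. Among the 177 were 39 of the 940 induced genes as lower and 22 as higher. Of the 1081 repressed genes, 22 were among them as higher and 6 as lower. The response difference was called in 122 of the 177, and 56 had the same called direction without LPS. With the 4 LPS arrays fitted alone, which is not among the 10 alternatives, 61 of the 177 were called.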

How the data were processed

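Macrophage RNA was measured on Affymetrix Mouse Genome 430 2.0 arrays, 1 array per sample. The deposited values are log2 expression per gene-level probeset, which the authors made from probe intensities released with an earlier study, using CustomCDF probesets of version 13, per the series' design text. The submitters' processing notes name affy 1.26.1. How background was corrected and arrays were normalized is not given in the sources used here.

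All 10 arrays were fitted with 1 mean per group with lmFit and eBayes of limma 3.58.1 in R 4.3.3, with 6 residual and 5.44 prior degrees of freedom. Two-sided p-values were adjusted by Benjamini-Hochberg over the 16860 genes, and adjusted values under 0.05 were called. No depth applies to arrays, and their number limits the precision.

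Genes, sets and alternatives were chosen with earlier results of these data known. The naming rule asked for symbols. Without a table that pairs IDs with symbols, it was limited, after the files were read, to 2 IDs per direction with the largest difference after LPS, the largest response difference among genes called after LPS, and the largest gap between the Atf3-/- LPS arrays. The planned gene lists, reported targets of ATF3 and marker lists were not run.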

Additional observations from a re-analysis of the deposited data

Results flagged for a closer look

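The genotype difference after LPS differed from that without LPS in 294 of the 662 genes called after LPS, by limma's test of the response difference (Atf3-/- minus wild type), and in 61 of them with a term for the state. The largest differences were 2.96 for ENSMUSG00000048806 and 2.49 for ENSMUSG00000038508 above 0, and -3.00 for ENSMUSG00000018500 and -2.96 for ENSMUSG00000056592 below 0. With the term for the state, ENSMUSG00000048806 (2.08, limma adjusted p = 0.150) and ENSMUSG00000038508 (2.03, limma adjusted p = 0.0799) were no longer called. Groups of 2 or 3 arrays are too small for a test of single outlying arrays.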

How the results depend on the processing

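The count of genes called after LPS was 662. It was 201 with a 2-fold minimum, 63 with the 4 LPS arrays alone, 414 with array weights and 419 with the state as a covariate, and ranged from 231 (without wild type LPS replicate 1) to 970 (without Atf3-/- LPS replicate 1) when single arrays were left out. Without LPS the count of 2157 came to 206 with a 2-fold minimum and 1052 with the state, and to 1193 to 2416 with single arrays left out. The response difference was called in 1005 genes, in 383 with a 2-fold minimum, in 133 with the state, and in 290 (without wild type LPS replicate 1) to 1360 (without Atf3-/- LPS replicate 1) with single arrays left out. Its directions were 402 above and 603 below 0, and 520 above and 506 below under quantile normalization. The causes of these changes were not tested, apart from the fewer arrays or the added minimum that some alternatives consist of.

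With the replicate block, 806 genes were called after LPS, 636 of them among the 662. The numbers were not taken as pairs: deviations of same-numbered arrays correlated at 0.191 with LPS, and at 0.305, -0.00527 and 0.0732 without LPS, where 2 of 3 Atf3-/- arrays and 1 of 3 wild type arrays correlated best with their own number. A lone array left by an omission was assumed to vary like the other groups. Counts within the LPS sets, of response differences among the 662 genes, of shared calls with and without LPS and of the 177 genes with the 4 LPS arrays alone were added, under the alternatives, after seeing the data. Values near the arrays' lower end depend on the background correction.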
